A study of Homo sapiens with 6 samples.

Results

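The genes described here encode the machinery that copies DNA: the complexes that mark and license replication origins, the helicase that opens them, and the polymerases and accessory factors of the moving fork. The group holds 46 genes, chosen by name from the 58302 genes of the deposited table. All 46 had 1 row each, and all 46 passed the filter on low counts, which kept 15945 genes. RNA was measured in PC-3, an established human prostate cancer cell line. The cells of 3 libraries had been given a blank-vector lentivirus. Those of the other 3 had been given one for overexpression of BHLHE22, a transcription factor of the basic helix-loop-helix family. Every group therefore went through lentiviral delivery, and the labels name no other allele, agent or time point and do not say whether cells were cloned. Nothing in the labels says that replicates were separate cultures, so the p-values rest on a spread between libraries that may be only technical.

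BHLHE22 had 1 read in each vector library and 98, 92 and 133 reads in the BHLHE22 libraries. Total counts were 12186723 to 15949537 per library, of which the 46 genes took 0.165% to 0.181% in the vector group and 0.281% to 0.333% in the BHLHE22 group. The smallest count of any of the 46 genes was 50 in vector replicate 1. The epithelial markers KRT8, KRT18, EPCAM and CDH1 summed to 426 to 451 CPM (counts scaled by library size) in the vector and 375 to 391 CPM in the BHLHE22 group. Of these EPCAM rose from 24.4 to 55.05 CPM, KRT8 and KRT18 fell, and CDH1 was not called. KLK3, TYROBP and CD3E were at 0 in all libraries, and 4 blood markers together stayed at or below 0.359 CPM. Fibroblast markers, mostly COL1A1, summed to 62.8 to 73.7 against 49.2 to 51.3 CPM. Among them COL1A1 fell, LUM rose from 0.437 to 1.94 CPM, and COL1A2 and DCN did not pass the count filter. Endothelial markers, mostly PECAM1, summed to 49.9 to 64.6 against 19.2 to 26.2 CPM. The 4 luminal prostate markers summed to 0.422 to 1.43 against 2.03 to 2.44 CPM. The part of these markers in the results was not tested.

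By way of background, a replication origin is first bound by the origin recognition complex (ORC), and CDC6 and CDT1 then load a ring of MCM2 to MCM7 around the DNA. In S phase the ring is joined by CDC45 and the GINS proteins to form the active helicase, called CMG. Polymerase alpha with primase starts each strand, polymerase epsilon extends the leading strand and polymerase delta the lagging strand, held on DNA by the PCNA clamp that the RFC complex loads. Many of these genes are known targets of the E2F transcription factors, which are active as cells pass from G1 into S phase.

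Promoter sequence is shown first, and its part in the changes of these genes was not tested. RefSeq windows of 300 bases, 250 before and 50 after an annotated start (GRCh38.p14), were at hand for 40 of the 46 genes, in 50 windows. MCM4, MCM5, GINS4, POLD3, RPA2 and RPA3 had none. The windows were searched on both strands, overlaps allowed, for 4 E2F-type words, TTTCGCGC, TTTGGCGC, TTTCCCGC and TTTGCCGC. A match was present in 22 of the 50 windows (44.0%), against 1164 of 35116 promoter windows in the whole RefSeq table (3.31%) and 736 of 15313 windows of tested genes (4.81%). A match describes the letters and is not evidence of binding. The following stretches are given 5′ to 3′ on the gene's strand, from genes of several roles chosen after the values were seen, with the matched bases in capitals and 9 bases on either side.
MCM2: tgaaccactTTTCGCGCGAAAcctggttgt
MCM3: ttcggaagtTTTCGCGCcggggtgga
MCM6: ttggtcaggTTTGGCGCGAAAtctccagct
CDC6: ccattcggaTTTGGCGCgagcgcggc
PCNA: gcgtcagggGCGGGAAAaggcgtgcg
POLE2: gcggcggtgGCGCCAAAtcgcaaata
CLSPN: tctggctggGCGGGAAAgcaagaaca

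In the helicase genes MCM2 and MCM6 the words of both strands overlapped, so that the capitals run over 12 bases and in MCM2 read the same on both strands. The MCM2 stretch is shown from chr3:127598404-127598433 (plus strand), and its capitals lie at positions 2 to 13 after the annotated start, which is counted as 0. The MCM6 stretch is from chr2:135876513-135876542 (minus strand) with capitals at -90 to -79, and a second overlapping pair in that gene begins at -152. MCM3 (chr6:52284730-52284755, minus strand), POLE2 (chr14:49688203-49688228, minus strand) and CLSPN (chr1:35769967-35769992, minus strand) hold their match across the start itself. CDC6 (chr17:40287877-40287902, plus strand) holds it at 7 to 14, and PCNA (chr20:5126665-5126690, minus strand) at -59 to -52. Of 29 matches, counted on either strand, 23 began no more than 100 bases before the start.

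**Figure D1:**
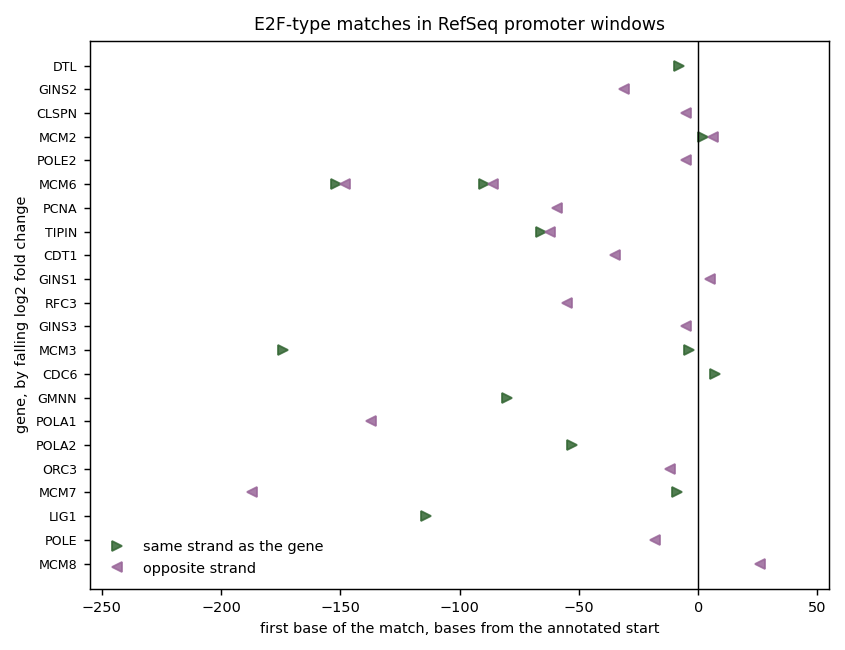
Position of each E2F-type match in the RefSeq promoter windows (x axis, bases from the annotated start, which is 0) for the 22 genes that have one (y axis, ordered by falling log2 fold change). Rightward and leftward triangles are matches on the gene's own and on the opposite strand; 23 of the 29 matches begin at or after -100, and MCM6 has 4.

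To set the ends of the range side by side, whole windows follow for the 3 genes with the largest rise and the 3 with the lowest log2 fold change. They are DTL (plus strand, chr1:212035498-212035797), GINS2 (minus strand, chr16:85688905-85689204), MCM10 (plus strand, chr10:13161308-13161607), RFC1 (minus strand, chr4:39366313-39366612), ORC2 (minus strand, chr2:200963611-200963910) and RPA1 (plus strand, chr17:1829755-1830054). Capitals again mark E2F-type words.
DTL: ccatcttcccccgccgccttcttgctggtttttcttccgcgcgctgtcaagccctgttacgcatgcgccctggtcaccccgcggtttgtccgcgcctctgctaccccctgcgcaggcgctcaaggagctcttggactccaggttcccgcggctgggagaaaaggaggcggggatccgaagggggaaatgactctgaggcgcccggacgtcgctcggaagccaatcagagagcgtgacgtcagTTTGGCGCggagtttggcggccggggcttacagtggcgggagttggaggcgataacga
GINS2: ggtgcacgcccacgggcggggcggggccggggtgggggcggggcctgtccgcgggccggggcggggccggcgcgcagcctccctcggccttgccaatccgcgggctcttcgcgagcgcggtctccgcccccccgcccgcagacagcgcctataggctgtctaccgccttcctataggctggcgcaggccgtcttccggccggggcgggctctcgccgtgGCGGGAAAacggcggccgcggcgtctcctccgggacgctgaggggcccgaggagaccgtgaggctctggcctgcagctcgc
MCM10: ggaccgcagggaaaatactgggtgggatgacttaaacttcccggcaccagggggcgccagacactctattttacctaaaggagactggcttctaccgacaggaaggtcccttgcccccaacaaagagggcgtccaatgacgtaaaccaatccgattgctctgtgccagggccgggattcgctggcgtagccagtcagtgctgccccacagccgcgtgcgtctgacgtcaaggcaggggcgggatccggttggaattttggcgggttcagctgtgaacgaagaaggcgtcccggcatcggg
RFC1: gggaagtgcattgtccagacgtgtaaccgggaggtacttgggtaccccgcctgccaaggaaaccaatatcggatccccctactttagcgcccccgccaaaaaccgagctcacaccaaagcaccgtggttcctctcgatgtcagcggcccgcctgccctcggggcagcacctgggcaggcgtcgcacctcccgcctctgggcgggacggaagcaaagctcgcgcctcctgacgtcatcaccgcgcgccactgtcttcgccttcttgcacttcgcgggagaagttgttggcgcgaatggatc
ORC2: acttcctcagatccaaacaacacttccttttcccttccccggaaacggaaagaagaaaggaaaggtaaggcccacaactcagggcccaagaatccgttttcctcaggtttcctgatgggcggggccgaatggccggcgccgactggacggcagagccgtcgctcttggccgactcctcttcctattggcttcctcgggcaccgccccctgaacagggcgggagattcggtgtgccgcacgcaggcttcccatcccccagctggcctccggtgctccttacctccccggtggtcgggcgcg
RPA1: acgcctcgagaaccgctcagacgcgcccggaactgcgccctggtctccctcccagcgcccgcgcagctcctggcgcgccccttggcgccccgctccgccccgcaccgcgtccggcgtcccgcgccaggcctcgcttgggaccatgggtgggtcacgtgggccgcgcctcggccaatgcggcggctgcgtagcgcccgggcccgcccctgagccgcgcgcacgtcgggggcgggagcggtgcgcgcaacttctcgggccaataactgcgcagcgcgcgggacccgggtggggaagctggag

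DTL and GINS2 each hold 1 match, and MCM10, RFC1, ORC2 and RPA1 hold none of the 4 words. MCM10 rose 5.05-fold with none in this window. The median log2 fold change was 1.2995 over the 22 genes with a match and 0.86 over the 18 without. Among windows of genes called at least 2-fold higher 15 of 26 held a match (57.7%), among those called higher by less 6 of 18 (33.3%), and among genes not called higher 1 of 6 (16.7%), which belonged to MCM8. The CCAAT word was in 30 of the 50 windows (60.0%) against 34.6% of all windows. The E-box CACGTG was in 8 of 50 (16%), against 7.26% of all windows and 9.18% of those of tested genes. It was in 5 of 44 windows of genes called higher and in 3 of 6 of the others. The E-box CATATG was in 2 of 50 (4.0%), against 3.04% of all windows and 1.59% of those of tested genes. These shares are descriptions of a set chosen by name, with no test.

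Most of the 46 genes had more RNA in the BHLHE22 cells. In edgeR's quasi-likelihood test, with Benjamini-Hochberg adjustment over the 15945 tested genes and a threshold of 0.05, 40 rose, 1 fell and 5 did not pass. Among all tested genes 25.1% rose and 24.3% fell. A rise of at least 2-fold was called for 23 of the 46, against 8.17% of tested genes. The median log2 fold change (BHLHE22 over vector) was 1.13, or 2.19-fold, where the median of all tested genes was 0.00. In 41 of the 46 every BHLHE22 library lay above every vector library, which held for 30.6% of tested genes. With unscaled library sizes 41 of the 46 rose and 1 fell, while over all genes 5128 rose and 2890 fell, against 3996 and 3880 with TMM scaling, and the median of all genes moved to 0.15. In bulk RNA a larger share of cells in S phase and more RNA per cell cannot be told apart.

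**Figure D2:**
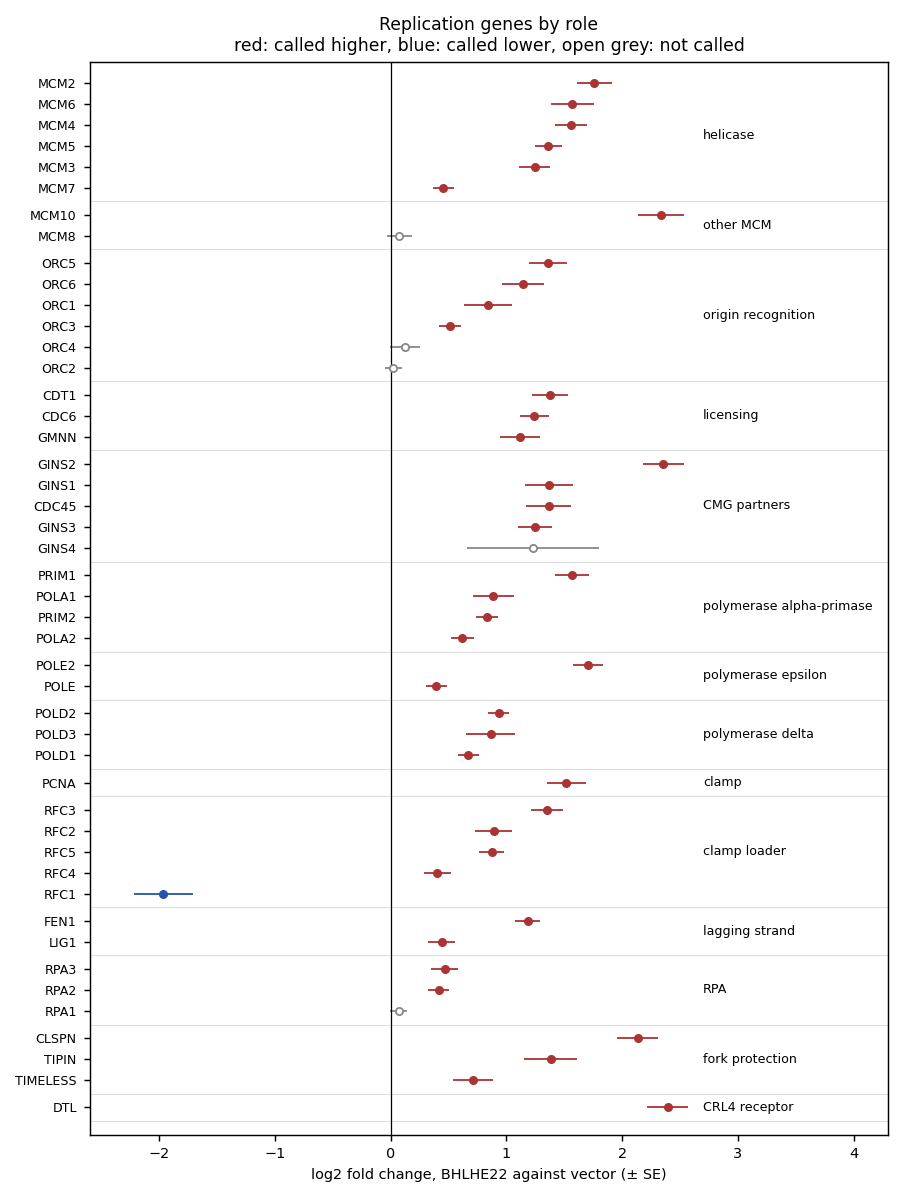
Log2 fold change of BHLHE22 over vector (x axis, ± SE, n = 3 per group) for the 46 genes grouped by role (y axis). Filled red points were called higher and the filled blue point lower; open grey points did not pass. RFC1 at -1.96 is the only point left of 0, and DTL, GINS2, MCM10 and CLSPN lie above 2.

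Libraries within a group were not level. Over the 46 genes the mean log2 level relative to the vector mean was -0.08, -0.06 and 0.14 in the vector libraries, by replicate number, and 0.89, 0.99 and 1.16 in those with BHLHE22. Vector replicate 3 was the highest of its group for 36 of the 46 genes, and BHLHE22 replicate 3 was the highest of its group also for 36. The step between the groups was larger than either within-group range.

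**Figure D3:**
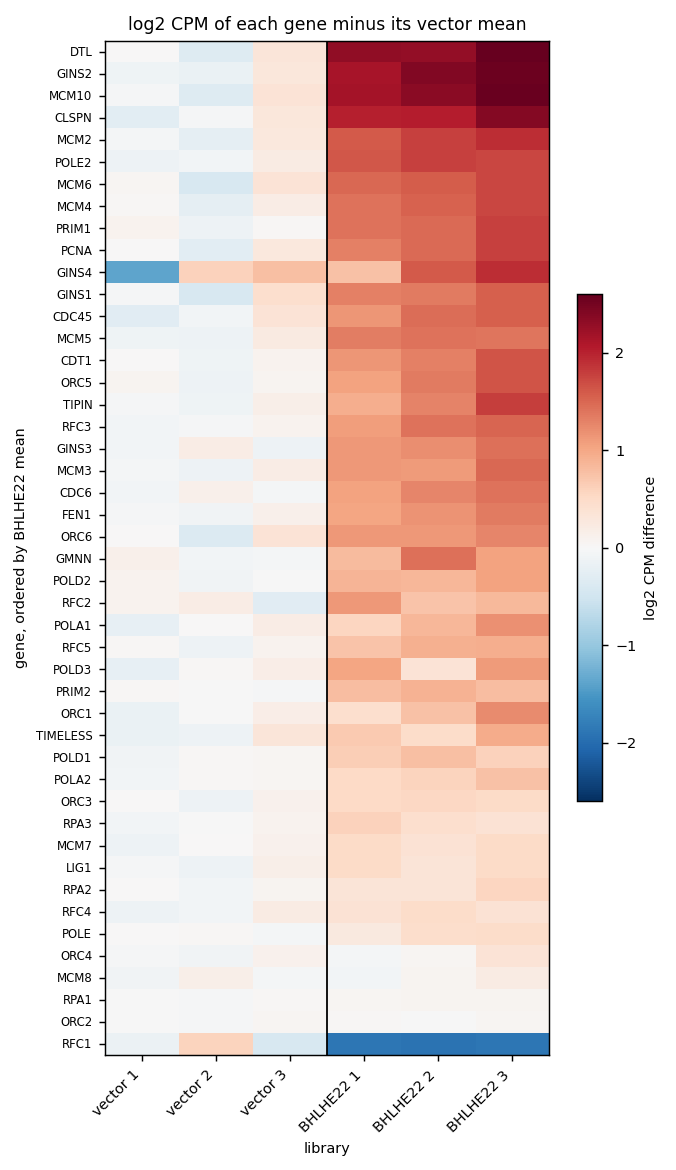
Log2 CPM of each gene minus its mean in the vector group (colour), with the 6 libraries as columns and the 46 genes as rows ordered by their BHLHE22 mean. Red is higher and blue lower. RFC1 forms the lone blue row in the BHLHE22 columns, and GINS4 is low in vector replicate 1.

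The origin recognition genes were split. The ORC proteins bind DNA at origins and recruit the loading factors. Of the 6 genes, 4 rose and 2 did not pass, with a median log2 fold change of 0.68. ORC5 (ENSG00000164815), which encodes an ATP-binding core subunit, had 14.8, 12.9 and 14.9 CPM in the vector libraries, always given in the order of replicates 1 to 3, and 29.3, 36.2 and 44.2 CPM in the BHLHE22 libraries. Its log2 fold change was 1.36 (SE 0.16, adjusted p = 0.000602, edgeR). ORC6, the subunit least tightly bound to the core, had 11.9, 9.32 and 15.2 CPM against 26.0, 26.0 and 28.7 CPM (log2 fold change 1.15). For both genes every BHLHE22 library lay above every vector library.

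ORC1, the large ATPase subunit that is known to be degraded and resynthesised with the cell cycle, had 11.7, 13.1 and 14.7 CPM against 17.7, 22.2 and 30.7 CPM, with a log2 fold change of 0.84 and a wide BHLHE22 range. ORC3, a core subunit, had 31.1, 28.3 and 33.5 CPM against 44.1, 44.7 and 43.7 CPM, a rise of 0.51 on the log2 scale with nearly equal BHLHE22 libraries. ORC2, also a core subunit, had 76.7, 75.8 and 79.6 CPM in the vector and 79.0, 76.6 and 80.1 CPM in the BHLHE22 libraries. Those ranges overlapped, and the log2 fold change of 0.02 (SE 0.07, edgeR adjusted p = 0.828) did not pass. ORC4 had 27.7, 26.7 and 30.4 CPM against 27.1, 29.3 and 35.9 CPM, again overlapping (log2 fold change 0.12, adjusted p = 0.469). Exons of ORC4 overlap those of ACVR2A and MBD5, so its reads may be shared. Per length, in the authors' deposited FPKM, which are not TMM-scaled, ORC2 was the highest ORC subunit in all 6 libraries, and the ratio of ORC6 to ORC2 was 0.147 ± 0.032 (SD, n = 3) in the vector and 0.321 ± 0.014 in the BHLHE22 libraries.

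The licensing genes rose together, loaders and inhibitor alike: 3 of 3 were called higher. CDC6, the ATPase that completes the loading complex, had 22.3, 25.6 and 22.5 CPM in the vector and 48.1, 56.3 and 62.2 CPM in the BHLHE22 libraries (log2 fold change 1.24, SE 0.12). CDT1, which brings the MCM ring, had 9.45, 8.70 and 9.93 CPM against 20.8, 23.1 and 29.04 CPM (1.38, SE 0.15). For GMNN, the gene of geminin, which blocks CDT1 after origins have fired, the values were 8.77, 7.62 and 7.68 CPM against 14.2, 21.5 and 16.6 CPM (1.12, SE 0.17). None of these groups overlapped. Within libraries the ratio of CDT1 to GMNN in FPKM was 1.16, 1.23 and 1.39 in the vector and 1.57, 1.16 and 1.87 in the BHLHE22 group, and these ranges overlapped.

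All 6 genes of the MCM2 to MCM7 helicase ring rose, with a median of 2.75-fold. MCM2 (ENSG00000073111) had 26.5, 23.5 and 33.3 CPM in the vector and 82.9, 94.7 and 104 CPM in the BHLHE22 libraries (log2 fold change 1.76, SE 0.15, adjusted p = 0.000181, edgeR). MCM5 went from 30.5, 30.2 and 38.6 CPM to 82.1, 87.0 and 86.2 CPM (1.36, SE 0.12), and MCM4 from 36.2, 30.3 and 40.9 CPM to 94.0, 103 and 119 CPM (1.56, SE 0.14). The groups were far apart for each of these. MCM3 had 67.0, 63.2 and 79.2 CPM against 152, 149.7 and 194 CPM (1.25, SE 0.13). MCM6 rose by 1.57 on the log2 scale, from 34.5, 25.0 and 42.6 CPM to 92.9, 99.5 and 111 CPM.

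MCM7 was the exception in size. It had 112, 124 and 133 CPM in the vector and 173, 160.1 and 173 CPM in the BHLHE22 libraries, a log2 fold change of 0.46 (SE 0.09). This was the smallest rise of the 6, and the groups did not overlap. Exons of MCM7 overlap AP4M1, a gene with 881 counts in all against 12513 for MCM7 and a log2 fold change of -0.27. Per length the spread within the ring was 3.88-, 4.87- and 4.06-fold between its highest and lowest subunit in the vector replicates and 3.40-, 3.03- and 3.72-fold in the BHLHE22 replicates. MCM4 was the lowest per length in 5 of the 6 libraries and MCM5 in BHLHE22 replicate 3.

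The 2 MCM relatives outside the ring differed. MCM10, which helps to activate the loaded helicase and recruits polymerase alpha, had 4.39, 3.54 and 5.70 CPM in the vector and 20.0, 22.5 and 26.3 CPM in the BHLHE22 libraries. Its log2 fold change of 2.34 (SE 0.20, adjusted p = 0.000177, edgeR) was the third largest of the 46. MCM8, which acts with MCM9 mainly in recombination, had 92.6, 111 and 95.2 CPM against 94.7, 104 and 115 CPM, with overlapping groups and a log2 fold change of 0.07 (adjusted p = 0.594).

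**Figure D4:**
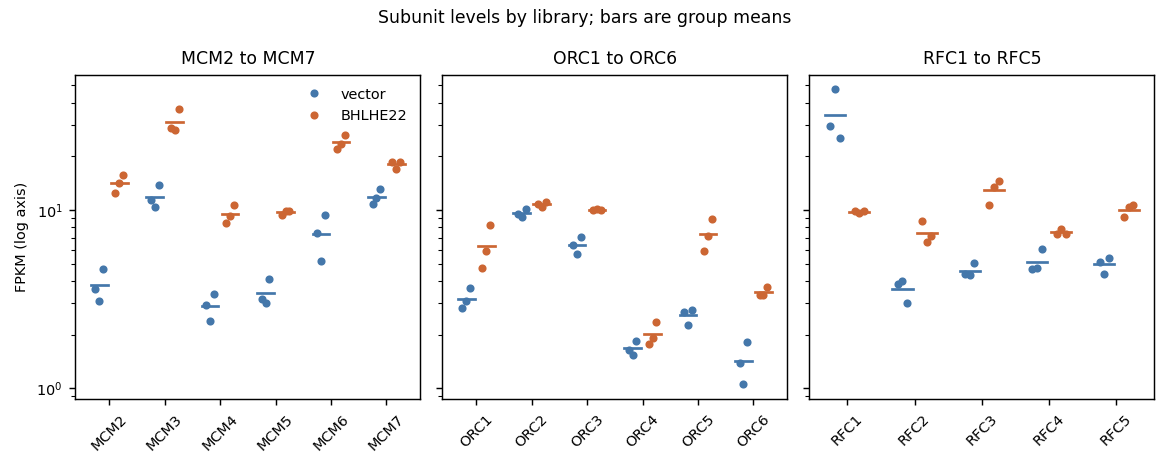
FPKM per library (y axis, log scale) for the MCM2 to MCM7, ORC and RFC subunits (x axis), with vector libraries in blue, BHLHE22 libraries in orange and bars at the group means. The MCM subunits all move up, MCM7 the least, and ORC2 and ORC4 change least among the ORC subunits. RFC1 falls from a mean of 34.1 to 9.76, close to the other RFC subunits.

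Partners that turn the ring into the CMG helicase rose in 4 of 5 cases. CDC45 had 7.03, 8.16 and 11.1 CPM in the vector and 19.1, 23.5 and 25.1 CPM in the BHLHE22 libraries (log2 fold change 1.37, SE 0.19). GINS2 (ENSG00000131153) had 3.78, 3.604 and 5.00 CPM against 18.0, 21.6 and 23.9 CPM, a 5.12-fold rise (2.36, SE 0.18, adjusted p = 0.000122, edgeR). Exons of GINS2 overlap GSE1, which has more counts (3667 against 1104) and a log2 fold change of 0.09. GINS1 had 18.9, 14.4 and 26.0 CPM against 47.7, 49.0 and 56.5 CPM (1.37, SE 0.21). GINS3 had 7.03, 8.50 and 6.76 CPM against 16.1, 17.0 and 19.9 CPM (1.25, SE 0.15). None of these 4 genes had overlapping groups.

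GINS4 did not pass although its log2 fold change was 1.23. It had 4.08, 15.9 and 18.2 CPM in the vector and 18.0, 31.7 and 40.0 CPM in the BHLHE22 libraries (SE 0.57, edgeR adjusted p = 0.126). Vector replicate 1 was far below the other two, and BHLHE22 replicate 1 was the lowest of its group and level with vector replicate 3. Without vector replicate 1 the log2 fold change was 0.82 (adjusted p = 0.0974). The GINS proteins act as a tetramer of 1 copy each, and this gene was the only one of the 4 whose groups overlapped.

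All 9 polymerase genes of the group, which leave out the smallest subunits of polymerases delta and epsilon, were called higher, with a median of 1.82-fold. Of those smallest subunits POLE3 and POLE4 rose by 0.34 and 0.63 on the log2 scale, and POLD4 had 0.29 and was not called (edgeR adjusted p = 0.236). In polymerase alpha-primase, the enzyme that lays down RNA-DNA primers, the small catalytic primase subunit PRIM1 had 7.79, 6.60 and 7.47 CPM in the vector and 19.4, 20.3 and 24.9 CPM in the BHLHE22 libraries (log2 fold change 1.57, SE 0.15). Exons of PRIM1 overlap NACA, with 9387 counts against 1253 and a log2 fold change of -0.20. PRIM2, the large primase subunit, was very tight within the vector group at 23.6, 23.2 and 22.9 CPM and had 40.3, 43.3 and 40.5 CPM in the BHLHE22 group (0.83, SE 0.09). The DNA polymerase subunit POLA1 had 21.0, 24.5 and 27.8 CPM against 35.98, 44.5 and 55.1 CPM (0.89), and its partner POLA2 had 35.6, 38.5 and 38.9 CPM against 53.7, 56.0 and 63.8 CPM (0.62).

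Polymerase epsilon showed a wide gap between subunits. POLE2, the accessory subunit, had 11.04, 11.4 and 13.9 CPM in the vector and 36.8, 41.4 and 40.4 CPM in the BHLHE22 libraries (log2 fold change 1.70, SE 0.13, adjusted p = 0.000117, edgeR), the smallest adjusted p of the 46. POLE, the catalytic subunit, had 67.2, 69.0 and 65.1 CPM against 80.1, 91.6 and 93.4 CPM (0.40, SE 0.09). The ratio of POLE2 to POLE in FPKM was 0.931 ± 0.146 (SD, n = 3) in the vector and 2.30 ± 0.07 in the BHLHE22 libraries. In polymerase delta the catalytic subunit POLD1 had 46.5, 50.5 and 51.6 CPM against 76.9, 84.95 and 74.7 CPM (0.67). Its accessory subunit POLD2 had 47.6, 42.1 and 44.2 CPM against 82.1, 81.7 and 91.7 CPM (0.93), again without overlap. POLD3, an accessory subunit that binds PCNA, rose by 0.86. It had 53.1, 33.4 and 56.2 CPM in the BHLHE22 libraries against 22.4, 26.7 and 29.4 CPM, so that replicate 2 lay just above the vector range.

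The clamp rose and the clamp loader split. PCNA, the sliding ring that tethers polymerases, had 60.6, 49.98 and 72.5 CPM in the vector and 149, 168 and 206 CPM in the BHLHE22 libraries (log2 fold change 1.52, SE 0.17). Per length PCNA was the highest of the 46 genes in the BHLHE22 group at 101 FPKM and second in the vector group at 32.1 FPKM. Of the 5 RFC genes 4 rose and 1 fell.

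RFC1 (ENSG00000035928, chromosome 4, 39287456 to 39366375, GRCh38), the large subunit of the loader, was the only one of the 46 genes with a negative log2 fold change. It had 311, 513 and 258 CPM in the vector libraries and 93.3, 91.2 and 93.2 CPM with BHLHE22. The vector libraries varied widely and lay well above the BHLHE22 libraries, which were nearly equal. The fall was 3.89-fold (log2 fold change -1.96, SE 0.26, adjusted p = 0.00151, edgeR). Leaving out vector replicate 2, the highest, gave -1.62 (adjusted p = 0.000187). In FPKM, RFC1 was the highest of the 46 genes in the vector group at 34.1 and ranked 29 from the lowest in the BHLHE22 group at 9.76. No exon of RFC1 overlaps another tested gene.

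The 4 small subunits went the other way. RFC3 had 16.2, 16.5 and 18.1 CPM in the vector and 35.7, 45.1 and 48.5 CPM in the BHLHE22 libraries (log2 fold change 1.35, SE 0.14). RFC5 had 33.3, 29.6 and 34.6 CPM against 54.1, 61.6 and 62.8 CPM (0.87, SE 0.11), and RFC2 had 22.6, 24.4 and 17.4 CPM against 46.1, 35.4 and 37.9 CPM (0.89, SE 0.16). RFC4 changed least, from 28.8, 30.3 and 36.6 CPM to 41.4, 44.2 and 41.0 CPM (0.40, SE 0.12, edgeR adjusted p = 0.0220). That call ended without vector replicate 1 (adjusted p = 0.0790), vector replicate 2 (0.0634) or BHLHE22 replicate 2 (0.0741), and exons of RFC4 overlap EIF4A2, which has 21432 counts against 3175. The ratio of RFC1 to RFC4 in FPKM was 6.40, 10.03 and 4.18 in the vector and 1.34, 1.22 and 1.35 in the BHLHE22 libraries. The 5 subunits, which assemble 1 to 1, thus spanned 7.74- to 11.8-fold per length in the vector and 1.45- to 2.04-fold in the BHLHE22 libraries.

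On chromosome 4 the nearest tested genes, chosen after the fall of RFC1 was seen, were mixed. On 1 side WDR19, KLHL5 and the long noncoding RNA gene AC079921.2 fell, with log2 fold changes of -0.55, -0.81 and -1.51. On the other side RPL9 was not called (-0.20), LIAS rose by 0.69 and UGDH fell by 0.84. RFC1 had the largest change of these 7 genes.

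Lagging-strand genes rose as a pair of unequal size. FEN1, the nuclease that removes primer flaps, had 53.0, 51.3 and 59.2 CPM in the vector and 110.0, 122 and 139 CPM in the BHLHE22 libraries (log2 fold change 1.18, SE 0.11). Its exons overlap FADS2 and TMEM258, which had -0.62 and -0.22. LIG1, the ligase that seals the fragments, had 19.7, 18.3 and 22.1 CPM against 28.1, 25.3 and 28.3 CPM (0.44, SE 0.12, edgeR adjusted p = 0.0153), and its adjusted p was 0.0525 without vector replicate 1.

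Of the 3 single-strand binding protein genes RPA2 and RPA3 were called higher, and the median of the 3 was 1.33-fold. RPA1, the large subunit of the RPA trimer, had 104, 102 and 107 CPM in the vector and 108, 109.8 and 110.2 CPM in the BHLHE22 libraries. The groups did not overlap, but the log2 fold change of 0.07 did not pass (SE 0.07, edgeR adjusted p = 0.444), and with unscaled library sizes it was 0.21 and did pass (adjusted p = 0.0455). RPA2 had 64.5, 60.9 and 67.0 CPM against 81.1, 81.4 and 94.0 CPM (0.41), and RPA3 had 12.6, 13.3 and 14.2 CPM against 20.1, 18.2 and 17.3 CPM (0.47). Without vector replicate 1 the adjusted p of RPA3 was 0.0515.

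Fork protection genes rose, 3 of 3. CLSPN, whose product claspin carries the checkpoint signal from ATR to CHEK1, had 9.60, 11.3 and 14.2 CPM in the vector and 46.6, 47.6 and 60.2 CPM in the BHLHE22 libraries (log2 fold change 2.13, SE 0.18, adjusted p = 0.000160, edgeR). TIPIN had 4.69, 4.42 and 5.35 CPM against 9.21, 11.8 and 16.6 CPM (1.38), and its partner TIMELESS had 36.7, 37.5 and 51.1 CPM against 66.3, 57.6 and 81.1 CPM (0.71). The 2 proteins form 1 complex at the fork, and per length TIPIN had the lower level in both groups. Its mean was 1.08 against 4.54 FPKM in the vector and 3.12 against 8.21 FPKM in the BHLHE22 group.

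DTL (ENSG00000143476) had the largest rise of the 46 genes. Its product, also called CDT2, is the receptor by which the CRL4 ubiquitin ligase recognises CDT1 bound to PCNA. It had 18.8, 14.9 and 23.3 CPM in the vector and 92.5, 90.4 and 116 CPM in the BHLHE22 libraries, 5.25-fold higher (log2 fold change 2.39, SE 0.18, adjusted p = 0.000127, edgeR). DDB1, the adaptor of the same ligase and no member of the group, fell from 515 to 334 CPM (-0.63), CUL4B rose by 0.28, and CUL4A was not called (-0.11).

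Set side by side by complex, the shares called higher were 7 of 8 for the MCM genes, 4 of 6 for ORC, 3 of 4 for GINS, 9 of 9 for the polymerases and 4 of 5 for RFC, with 25.1% as the background. The medians were 1.46, 0.68, 1.31, 0.86 and 0.87 on the log2 scale. Mean levels relative to the vector mean were 1.19 to 1.44 for MCM in the BHLHE22 replicates, 0.51 to 0.84 for ORC, 1.34 to 1.86 for GINS, 0.86 to 1.05 for the polymerases and 0.29 to 0.36 for RFC. The RFC mean includes RFC1 at -1.96, while the other RFC genes rose. The GINS mean includes GINS4, which was low in vector replicate 1. Differences between the complexes were not tested.

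Neighbours on the opposite strand offer a comparison at the same locus. In GENCODE release 29, 14 of the 46 genes had a protein-coding neighbour that runs the other way and starts close by. Such a neighbour starts up to 1000 bases before the replication gene or slightly inside it, as TPRA1 does in MCM2. Genes on the opposite strand that start deeper inside a replication gene were not counted. The tests covered 12 of the 14 neighbours. Of these neighbours 3 rose, 2 fell and 7 did not pass, with a median log2 fold change of -0.02. Their share of rises was near that of all tested genes, of which 25.1% rose and 24.3% fell. INTS7, whose start lies 11 bases from that of DTL, rose by 0.39 where DTL rose by 2.39. PRKDC, 2 bases from MCM4, had 0.31 and was not called (edgeR adjusted p = 0.0775), and MAP2K1, 71 bases from TIPIN, had 0.05. CDS2, 160 bases from PCNA, fell by 0.35, and UFD1, 244 bases from CDC45, fell by 0.41.

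TPRA1, whose exons overlap those of MCM2, rose by 0.42, and PXMP2 beside POLE rose by 0.75, more than POLE at 0.40. VPS35, PRPF38A, RARS2, ZSWIM9 and TRMT6 beside ORC6, ORC1, ORC3, LIG1 and MCM8 were not called. In 11 of the 12 pairs the replication gene had the higher log2 fold change. The medians were 1.13 over the 46 genes and 0.00 over all tested genes, so most genes would lie below a replication gene. The pairs were picked by position alone, after the results of the replication genes were known, and the differences within pairs were not tested.

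**Figure D5:**
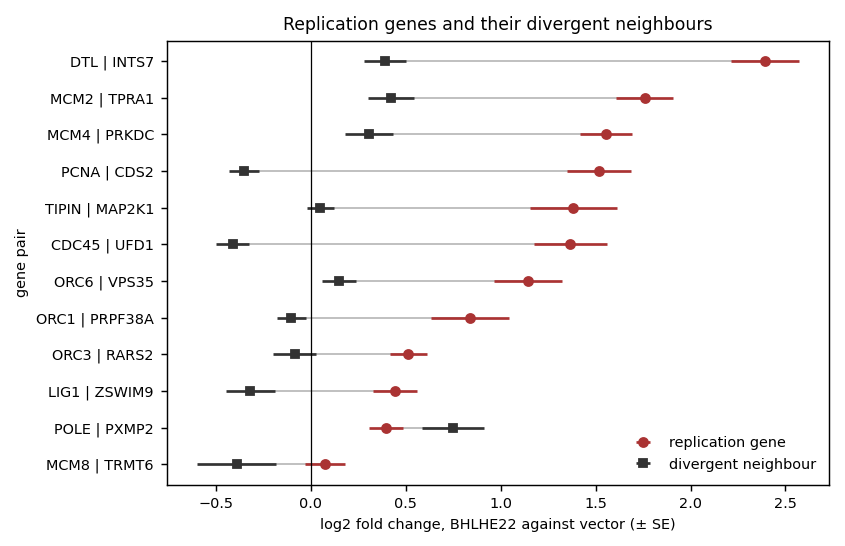
Log2 fold change (x axis, ± SE, n = 3 per group) of 12 replication genes (red circles) and of the protein-coding gene that starts beside each on the opposite strand (dark squares). Pairs are ordered on the y axis by the replication gene; only in the POLE pair does the neighbour lie further right.

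Other genes of replication moved in the same direction to a varying degree. Over all tested genes 25.1% rose and 24.3% fell. Of 21 regulators of origin firing and the fork 14 rose (66.7%) and 1 fell, with a median log2 fold change of 0.59. TICRR, which with MTBP brings firing factors to the MCM ring, rose by 1.53 and the checkpoint kinase gene CHEK1 by 1.15, while DDB1 fell, as given above. Of 18 genes of replication-coupled chromatin and lagging-strand work 15 rose (83.3%) and none fell. These include the histone chaperone genes ASF1A (1.10), NASP (0.90) and CHAF1B (1.74). In the nucleotide supply list 9 of 12 rose (75%) and none fell, led by SAMHD1 (2.02), RRM2 (2.51) and TK1 (1.57). Of these SAMHD1 encodes a nucleotide-degrading enzyme, and RRM2 and TK1 encode enzymes that make precursors.

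Polymerases that serve repair, bypass and mitochondria went both ways. Of 15 genes 5 rose (33.3%, against 25.1% of all tested genes) and 3 fell (against 24.3%), with a median of -0.08, so these shares were near the background. POLQ, the polymerase of end joining, rose by 1.51, POLH by 0.58, PRIMPOL by 0.74, POLK by 0.43 and MAD2L2 by 0.42, while POLG, the mitochondrial polymerase, fell by 0.69, REV1 by 0.31 and POLN by 0.70. Scaled by total counts alone, the list had a median of 0.07 and 1 fall, and there was also 1 fall without vector replicate 1, without vector replicate 2 or without any 1 BHLHE22 library. Of 9 genes of the alternative clamps and loaders 3 rose, namely DSCC1 (1.85), RHNO1 (0.99) and ATAD5 (0.79), a share of 33.3% against 25.1% of all tested genes. None fell, and with unscaled library sizes 7 rose. RAD17, which replaces RFC1 in the checkpoint loader, had -0.30 and was not called. Of 20 G2/M genes 17 rose (85%, against 25.1% of all tested genes) and none fell, with a median of 1.08. MKI67 rose by 1.49, KIF23 by 1.15 and TPX2 by 1.22, so markers of dividing cells moved with the replication genes, and their part in these results was not tested.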

How the data were processed

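The authors deposited, per the file headers, whole-number read counts and FPKM values per gene for 6 libraries; per the submitters' processing notes CASAVA 1.8, HISAT2 2.1.0, StringTie 1.3.4b, edgeR, GRCh38 and hg38 are named, while how reads were counted, and with or without strand, is not given in the sources used here. The deposited FPKM followed from count, gene length and summed count within 0.1% for 100% of 26866 genes and serves here for levels per length. Columns headed control were taken as the vector libraries, by the number in the header. Counts were tested with edgeR 4.0.16 (R 4.3.3): filterByExpr, TMM scaling, robust quasi-likelihood test, 2-sided, with group as the only term and Benjamini-Hochberg adjustment over 15945 genes. CPM are counts over TMM-scaled library sizes, and the SE is the log2 fold change divided by the square root of F. Alternatives were other scalings, DESeq2 1.42.0, limma-voom 3.58.1, other filters, a replicate block and leaving out each library. The procedure was tested on simulated counts. The 46 genes, the lists and the tests were chosen with earlier results of these data known.

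Values per library are given, within each role, for up to 4 called genes with the smallest p and for every gene not called or lower. Of each list, up to 3 called genes with the smallest p are named, and falling genes of the polymerase list. MCM6, MCM7, POLD4, POLE3, POLE4, PRIMPOL, POLK and MAD2L2 were named after their values were seen. So were the epithelial and fibroblast markers singly, CUL4A, CUL4B, RAD17, the chromosome 4 neighbours and the divergent neighbours. Positions come from the deposited table and matched GENCODE release 29 for 45 of the 46. Promoters are from RefSeq (GRCh38.p14). A search of protein motifs was planned and not run. Exons of 11 of the 46 genes overlap another tested gene, with more counts in the other gene for 6 (FEN1, GINS2, ORC4, PRIM1, RFC4 and RFC5), so reads may be shared.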

Additional observations from a re-analysis of the deposited data

How the results depend on the processing

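The 46 genes kept their direction under all 13 alternative fits, and 591 of 598 comparisons of 1 gene under 1 fit stayed on their side of the threshold. The number called higher ranged from 37 (without vector replicate 1) to 41, and 1 gene, RFC1, was called lower in each. At an adjusted p under 0.01, 34 rose, and 35 did in a test against a 1.2-fold change. The calls lost were those of RFC4, LIG1 and RPA3, and the calls gained were RPA1 with unscaled library sizes and GINS4 with the block. With unscaled library sizes 7 genes of the alternative clamps and loaders rose, 1 of the repair and mitochondrial polymerases fell, and the median of that list was 0.072. In that polymerase list 1 fell without the low-count filter, and 1 to 2 fell when each library was left out. Over all tested genes the deviations of same-numbered libraries were nearly uncorrelated (r = 0.01, -0.03 and 0.01). Values over all genes cannot show whether a smaller set shares an effect of the replicate number. Among the 46 genes, replicate 3 was the highest for 36 in the vector group and for 36 in the BHLHE22 group. With the replicate number as a block, 41 of the 46 rose, and GINS4 had a log2 fold change of 1.38 (adjusted p = 0.0082, edgeR). With 3 libraries per group, a smallest count of 50 and a common biological coefficient of variation of 17.0%, both spread and counting limit the precision of the lowest genes.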
